A study of Danio rerio with 16 samples.

Results

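Zebrafish embryos labelled as Gata5 morphants were compared directly with embryos labelled as Gata6 morphants at the 6-somites stage. The 2 Gata5 and the 2 Gata6 morphant libraries of that stage, 4 of the 16 libraries of the series, were chosen by these labels alone. Each library held polyA RNA from a pool of 40 whole embryos. The comparison asks which mRNAs differ between embryos given a Gata5 morpholino and embryos given a Gata6 morpholino, and WT embryos do not enter the difference. WT and Gata5/6 morphant embryos of the same stage, 2 libraries each, entered the fit as further groups and are given as reference levels. The Gata5 and Gata6 morphant libraries collected at bud, the end of gastrulation, served as a second stage. Strain, morpholino sequence and dose, clutch and injection day are not given in the labels, nor whether WT embryos were injected. With 2 pools per group, p-values therefore measure the spread between pools, and a difference between clutches cannot be told apart from a difference between morpholinos.

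GATA factors are zinc-finger transcription factors that bind short motifs around the letters GATA. Gata5 and Gata6 act in the precardiac mesoderm and in the endoderm of vertebrate embryos, where they have partly shared roles in forming heart muscle precursors. A morpholino pairs with a chosen mRNA and stops it from being translated or correctly spliced. The amount of that mRNA therefore need not show the knockdown. Protein was not measured here, and no identifier in the files carried the symbol gata6, so its mRNA is not analysed here. At 6-somites the embryo holds somites with early muscle, a patterned neural plate, notochord, heart field, blood and kidney precursors, an enveloping layer and a yolk cell whose syncytial layer exports nutrients. In such whole-embryo RNA, fewer cells of a type and less RNA per cell cannot be told apart.

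Expression was deposited as RPKM, a read count scaled to gene length and library size, for 26496 genes at 6-somites. Depth, as whole reads recovered from the spacing of the values, was 20.07 to 26.95 M reads on listed genes in the 8 libraries of that stage. The 10 most abundant genes held 3.32% to 3.84% of them. Replicate libraries differed by more than counting noise in every group, with a standard deviation of their log2 difference of 0.183 for Gata5, 0.220 for Gata6, 0.229 for WT and 0.216 for Gata5/6 morphants. Libraries of a group lay together on the first 2 principal components, which held 39.2% and 25.3% of the variance. Both Gata5 libraries scored above 0 on the second component and both Gata6 libraries below 0. Marker genes of a whole embryo at this stage were present in both groups. The planned endoderm marker, sox17, is missing from these, as it was not among the genes tested below. krt4 of the enveloping layer was at 1715 and 1720 RPKM in Gata5 and at 1792 and 1747 RPKM in Gata6 morphants, and otx2 of the forebrain and midbrain was present in all 4 libraries. gata1a, a factor of red blood cell precursors, was low in both, with means of 1.13 and 0.834 RPKM.

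gata5 (ENSDARG00000017821), a target of one of the morpholinos, had more mRNA in Gata5 than in Gata6 morphants. It was at 97.0 and 91.0 RPKM in the Gata5 morphant libraries and at 46.0 and 44.2 RPKM in the Gata6 morphant libraries, while WT libraries held 27.0 and 32.3 RPKM and Gata5/6 morphant libraries 130.1 and 117 RPKM. The 4 groups did not overlap, and the order from low to high was WT, Gata6, Gata5 and Gata5/6. The log2 difference of RPKM + 1 between Gata5 and Gata6 morphants was 1.04 ± 0.098 (SE), with a limma adjusted p of 0.0013. The mRNA level thus separates the groups but says nothing of the protein.

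A gene was tested when 2 or more libraries of the stage held 1 RPKM of it, which left 14167 genes. Of these, 3077 (21.7%) differed between Gata5 and Gata6 morphants at a limma adjusted p under 0.05. Of the called genes, 1923 (13.6% of the genes tested) were higher in Gata5 and 1154 (8.15%) were higher in Gata6 morphants. The genes higher in Gata5 made up 62.5% of the called genes on the deposited scale and 51.0% (1604 higher in Gata5 and 1540 higher in Gata6) after a median-of-ratios scaling of the libraries. Most differences were small. The median size was 0.445 on the log2 scale, and 1883 of the called genes (61.2%) differed by less than 0.5. A log2 difference over 1 was found for 116 called genes (0.819% of those tested), of which 67 were higher in Gata5 and 49 higher in Gata6 morphants. Both Gata5 libraries lay on one side of both Gata6 libraries in 66.3% of all genes tested, so a lack of overlap is common here and is given only as a description of the genes below. The number of called genes was 1037 without Gata5 library 2, 1310 without Gata5 library 1, 1127 without Gata6 library 2 and 1416 without Gata6 library 1. It was 567 when the spread was estimated from all 16 libraries of both stages, and all 567 were among the 3077.

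The genes with the largest differences were not, for the most part, known regulators of the heart. Over all 3077 called genes, the highest log2 difference was that of zgc:56231 (ENSDARG00000010332), a gene without an assigned function, at 14.7 and 13.5 RPKM in Gata5 morphants and 0.277 and 0.187 RPKM in Gata6 morphants. WT libraries held 0.218 and 0.353 RPKM of it and Gata5/6 morphant libraries 6.30 and 6.49 RPKM. It was thus high wherever the Gata5 morpholino was used and low in the other libraries, with a log2 difference of 3.62 ± 0.089 (adjusted p = 4.8e-06). si:dkey-218i12.3 (ENSDARG00000092295), also without an assigned function, had the same order, with 4.2 and 4.17 RPKM in Gata5, 0.0623 and 0.126 RPKM in Gata6, 0.322 and 0.239 RPKM in WT and 2.11 and 2.28 RPKM in Gata5/6 morphants. Its log2 difference was 2.25 ± 0.088 (adjusted p = 5.9e-05).

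In another set of genes the Gata6 libraries stood apart and the Gata5 libraries lay near WT. rexo2 (ENSDARG00000009806), an exonuclease that degrades short RNAs in mitochondria, was at 23.1 and 22.7 RPKM in Gata5 and at 4.02 and 5.56 RPKM in Gata6 morphants. WT libraries held 20.9 and 23.4 RPKM and Gata5/6 morphant libraries 12.6 and 12.5 RPKM, so the Gata6 libraries were the lowest and the Gata5/6 libraries lay between. Its log2 difference was 2.06 ± 0.12 (adjusted p = 0.00021). The same order held for the membrane protein gene ginm1 (11.0 ± 0.033 against 2.95 ± 0.45 RPKM, SD, n = 2, with 10.7 RPKM in WT and 5.24 RPKM in Gata5/6 morphants) and for vars1, the valyl-tRNA synthetase gene (24.4 ± 1.0 against 7.80 ± 0.80 RPKM, with 21.8 and 11.5 RPKM). It also held for focad, which encodes focadhesin (9.30 ± 0.080 against 2.71 ± 0.072 RPKM, with 10.6 and 5.91 RPKM), and for mtmr6, a phosphoinositide phosphatase gene (6.72 ± 0.15 against 2.06 ± 0.18 RPKM, with 6.15 and 4.03 RPKM). The serine carboxypeptidase gene scpep1 stood at 50.5 ± 4.9 RPKM in Gata5 and 18 ± 0.85 RPKM in Gata6 morphants, with 42.9 RPKM in WT and 20.8 RPKM in Gata5/6 morphants. Log2 differences of these 5 genes ranged from 1.34 to 1.61.

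A further gene with WT near the Gata5 morphants was cd36 (ENSDARG00000032639), a receptor that takes up fatty acids. It was at 4.70 and 3.33 RPKM in Gata5 and at 0.847 and 0.859 RPKM in Gata6 morphants. WT libraries held 3.35 and 4.70 RPKM, the range of the Gata5 libraries, and Gata5/6 morphant libraries 0.0924 and 0.155 RPKM, below every other library. The log2 difference between Gata5 and Gata6 morphants was 1.42 ± 0.16 (adjusted p = 0.0023). Besides zgc:56231 and si:dkey-218i12.3, 3 of the 12 highest genes had WT levels nearer to the Gata6 morphants on the log2 scale. They were pfkfb4, whose enzyme sets a signal that speeds glycolysis (14.8 ± 0.033 against 4.85 ± 0.096 RPKM), the desmosomal plakophilin gene pkp3a (31.2 ± 2.5 against 11.2 ± 0.53 RPKM) and rhoh, a small GTPase gene of blood cells (2.03 ± 0.087 against 0.203 ± 0.039 RPKM). rhoh lost its call without Gata6 library 2 (adjusted p = 0.053). Besides its Gata5 libraries, only 1 Gata5/6 morphant library (1.18 RPKM) reached 1 RPKM, so it passed the filter through the group where it was high.

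The lowest log2 difference of all called genes belonged to an rrm2 gene (ENSDARG00000078069), which encodes the small subunit of ribonucleotide reductase, the enzyme that makes DNA precursors. It was at 0.185 and 0.0582 RPKM in Gata5, 4.97 and 5.34 RPKM in Gata6, 5.61 and 7.87 RPKM in WT and 18.2 and 16 RPKM in Gata5/6 morphants. The Gata5 libraries were thus far below every other library, including those of the Gata5/6 morphants, and the log2 difference was -2.46 ± 0.14 (adjusted p = 0.0002). At bud this gene differed as widely between replicate pools, with 41.4 and 0.143 RPKM in the Gata5 and 23.4 and 9.78 RPKM in the Gata6 morphant libraries, and with the spread of 16 libraries the adjusted p was 0.36. A second identifier with the symbol rrm2 (ENSDARG00000020711) was at 43.0 ± 2.4 RPKM in Gata5 and 39.2 ± 4.2 RPKM in Gata6 morphants (adjusted p = 0.387).

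vmo1a (ENSDARG00000043002), related to a protein of the egg's outer vitelline membrane, was at 0.189 and 0.263 RPKM in Gata5, 3.52 and 3.71 RPKM in Gata6, 0.236 and 0.199 RPKM in WT and 1.00 and 1.03 RPKM in Gata5/6 morphants. The libraries with a Gata6 morpholino were above the others, those with that morpholino alone the most, and the log2 difference was -1.91 ± 0.088 (adjusted p = 0.00011). nfybb, a subunit gene of the CCAAT-binding factor NF-Y, had 2.73 ± 0.15 RPKM in Gata5 and 9.19 ± 0.38 RPKM in Gata6 morphants, with 2.92 RPKM in WT and 3.26 RPKM in Gata5/6 morphants. rhcg (ENSDARG00000003203), an ammonium transporter gene, had 0.240 ± 0.11 RPKM in Gata5 and 2.67 ± 0.12 RPKM in Gata6 morphants, with 0.623 RPKM in WT. Only the Gata6 libraries reached 1 RPKM of it, so it passed the filter through the group where it was high. At bud its Gata5 (1.19 and 1.66 RPKM) and Gata6 (1.28 and 3.18 RPKM) libraries overlapped. The second rhcg identifier (ENSDARG00000007080) did not pass the test (adjusted p = 0.284). The cytokine subunit gene ebi3 (0.478 ± 0.21 against 2.83 ± 0.35 RPKM), the proteasome activator gene psme1 (3.34 ± 0.11 against 9.40 ± 0.61 RPKM) and zgc:112994, without an assigned function (3.02 ± 0.76 against 8.86 ± 0.26 RPKM), also had WT levels nearer to the Gata5 morphants on the log2 scale.

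fgfrl1b, related to FGF receptors but without their kinase domain, showed the other order, with 3.55 ± 0.068 RPKM in Gata5 and 10.4 ± 0.60 RPKM in Gata6 morphants. WT stood near the Gata6 morphants at 8.96 RPKM, and the Gata5/6 morphants near the Gata5 morphants at 3.57 RPKM. rsrp1 (5.65 ± 0.073 against 16.2 ± 0.00071 RPKM), the cerebellin family gene cbln10 (4.26 ± 2.3 against 13.2 ± 0.37 RPKM) and urahb, an enzyme gene of urate breakdown (5.61 ± 4.1 against 20.4 ± 2.3 RPKM), had WT levels nearer to the Gata6 morphants too, on the log2 scale. The Gata5 libraries differed between themselves for urahb, with 8.52 and 2.71 RPKM, and for cbln10, with 5.86 and 2.65 RPKM. urahb lost its call without Gata6 library 2 (adjusted p = 0.083) and in the fit of 16 libraries (adjusted p = 0.325).

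**Figure D1:**
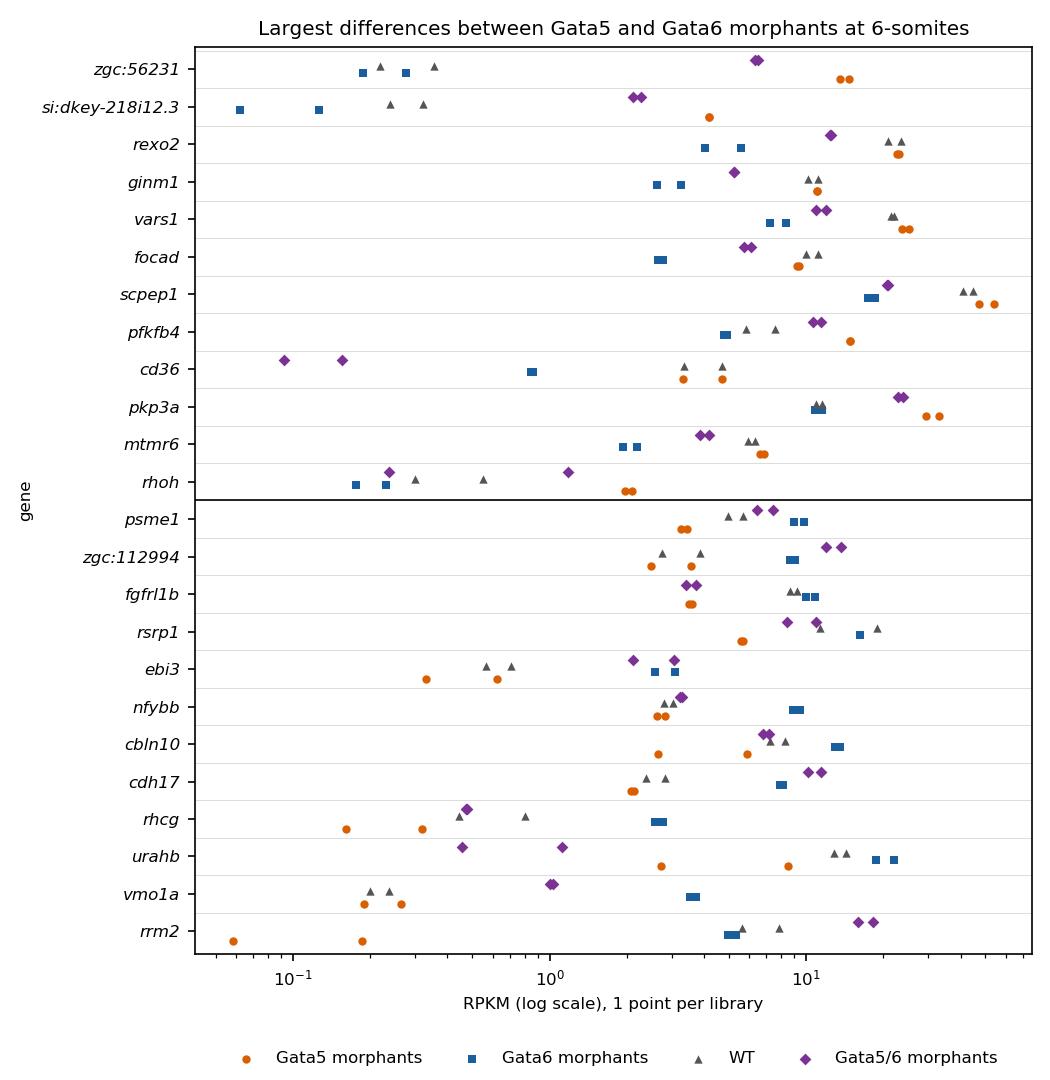
RPKM on a log axis in each of the 8 libraries at 6-somites for the 12 highest (above the line) and the 12 lowest log2 differences between Gata5 and Gata6 morphants among named genes. Points are single libraries of Gata5, Gata6, WT and Gata5/6 morphant embryos, and a reader should see that WT lies with the Gata5 libraries for rexo2 and vmo1a and with the Gata6 libraries for zgc:56231 and fgfrl1b.

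Among the 67 called genes more than 1 log2 unit higher in Gata5, the WT mean of log2 values was nearer to the Gata5 mean in 32 and nearer to the Gata6 mean in 35. Among the 49 more than 1 log2 unit higher in Gata6 morphants, it was nearer to Gata5 in 32 and nearer to Gata6 in 17. The WT mean lay between the Gata5 and Gata6 means in 53 of the 67 and in 36 of the 49. The Gata5/6 morphant mean lay between the other morphants' means in 52 of the 67 and in 28 of the 49. It lay above both in 16 of the 49, as for cdh17, rrm2 and zgc:112994. The large differences thus held genes that departed from WT in either morphant, and this position is a description without a test.

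Genes that change strongly during normal development differed between the morphants in 1 direction more than in the other. In WT, 132 of the genes tested were more than 2 log2 units higher at 6-somites than at bud. Of these, 60 were higher in Gata5 and 4 higher in Gata6 morphants (48.5% called, against 21.7% of all genes tested), with a median log2 difference of 0.342 beside 0.041 over all genes. Of the 41 genes more than 2 log2 units lower in WT at 6-somites than at bud, 3 were higher in Gata5 and 11 higher in Gata6 morphants, with a median of -0.345. These 2 sets were chosen after the values were seen. The gene lists below were chosen with earlier results of these data known. Their shares called, set beside that of all genes, are a description without a test. For the gene lists below, the median WT difference, 6-somites minus bud, was 1.18 for extracellular matrix, 0.999 for blood and vascular, 0.966 for hatching gland, 0.845 for contractile, 0.756 for neural crest, 0.673 for neural plate, 0.603 for retinoic acid and hox and 0.55 for pharyngeal genes. It lay between -0.858, for endoderm genes, and 0.496 for the other 15 lists. Of 19 neural crest genes, 5 were higher in Gata6 and 0 higher in Gata5 morphants (26.3% called, beside 21.7% of all genes). The list median was higher in WT at 6-somites than at bud, as were 2 of these 5 genes. The 2 called pharyngeal genes were higher in WT at 6-somites, and both were higher in Gata6 morphants. Of 9 called retinoic acid and hox genes, 7 were higher in WT at 6-somites, and 6 were higher in Gata6 and 3 higher in Gata5 morphants. All 15 called matrix genes were higher in WT at 6-somites, and 14 of them were higher in Gata5 and 1 higher in Gata6 morphants. The part of the WT difference in the results was not tested.

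**Figure D2:**
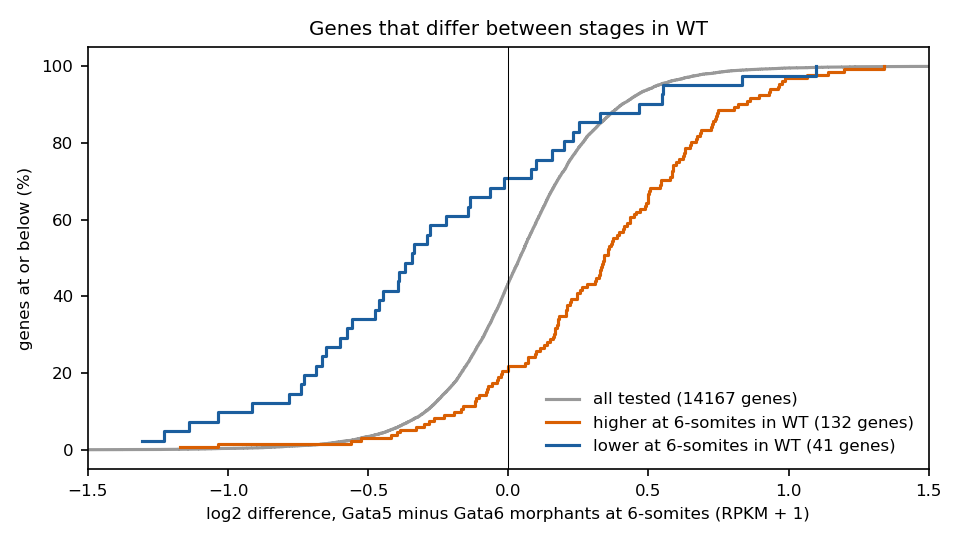
Cumulative share of genes (y axis, %) at or below a log2 difference of RPKM + 1 between Gata5 and Gata6 morphants at 6-somites (x axis), for all 14167 genes tested, for the 132 genes over 2 log2 units higher and for the 41 over 2 log2 units lower in WT at 6-somites than at bud. The first set lies to the right of all genes, with a median of 0.342, and the second to the left, with a median of -0.345.

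Of 18 cardiac progenitor genes tested, gata5 among them, 2 were higher in Gata5 and 4 higher in Gata6 morphants (33.3% called, beside 21.7% of all genes). The median log2 difference was -0.071, beside 0.041 over all genes. Of the 2 higher in Gata5, gata5 is described above, and the other is outside the naming rule and not described here. The 4 higher in Gata6 are described below. tmem88a (ENSDARG00000056920), a membrane protein gene that restrains canonical Wnt signalling and is named in the study's title, was at 2.72 and 2.49 RPKM in Gata5 and at 4.27 and 3.70 RPKM in Gata6 morphants. WT libraries held 3.6 and 3.27 RPKM and Gata5/6 morphant libraries 2.46 and 2.15 RPKM, so the Gata5 and Gata5/6 libraries were below the WT and Gata6 libraries. The log2 difference was -0.47 ± 0.094 (adjusted p = 0.014). Its paralog tmem88b (ENSDARG00000069388) was at 4.33 and 4.68 RPKM in Gata5 and at 3.62 and 3.59 RPKM in Gata6 morphants, a log2 difference of 0.26 ± 0.081 that did not pass the test (adjusted p = 0.06).

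hand2, a helix-loop-helix factor needed for heart muscle precursors, was at 16.9 and 14.8 RPKM in Gata5 and at 20.4 and 19.2 RPKM in Gata6 morphants, with 21.6 and 21.0 RPKM in WT. The T-box gene tbx20 had 0.920 ± 0.036 RPKM in Gata5 and 1.49 ± 0.11 RPKM in Gata6 morphants, with 2.23 RPKM in WT. nkx2.5, the homeobox gene of early cardiac cells, was low throughout, at 0.268 and 0.491 RPKM in Gata5, 0.859 and 0.767 RPKM in Gata6, 1.27 and 1.1 RPKM in WT and 0.105 and 0.220 RPKM in Gata5/6 morphants. For all 3 genes the Gata6 libraries lay between the Gata5 and the WT libraries, and log2 differences were -0.31 ± 0.080, -0.37 ± 0.098 and -0.40 ± 0.12. These calls were close to the threshold. The call of nkx2.5 (limma adjusted p = 0.048) was lost whichever of the 8 libraries was left out. All 4 compared libraries were under 1 RPKM for nkx2.5, which passed the filter through the WT libraries. The highest adjusted p on leaving out 1 library was 0.0855 for tmem88a and 0.191 for hand2 (both without Gata5 library 2), 0.159 for tbx20 (without Gata6 library 2) and 0.226 for nkx2.5 (without Gata5 library 1). Without any 1 of the 4 compared libraries, 1 of the list was higher in Gata5 and 0 to 2 higher in Gata6, and with 16 libraries gata5 alone was called.

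Of 7 contractile genes tested, 2 were higher in Gata5 and 0 higher in Gata6 morphants (28.6% called, beside 21.7% of all genes). The median log2 difference was 0.12. tpm4a, a tropomyosin gene, was at 24.3 ± 1.4 RPKM in Gata5 and 14.2 ± 1.0 RPKM in Gata6 morphants (log2 difference 0.73 ± 0.092, adjusted p = 0.0031). An acta1 skeletal actin gene (ENSDARG00000055618) had 11.4 ± 1.1 against 7.82 ± 0.21 RPKM and also passed the test (adjusted p = 0.015), but not without Gata5 library 2 (adjusted p = 0.093). The other acta1 identifier (ENSDARG00000036371), at 70.4 ± 5.2 against 60.9 ± 0.16 RPKM, did not pass it (adjusted p = 0.145). With 16 libraries tpm4a was called (limma adjusted p = 0.02) and the acta1 gene ENSDARG00000055618 was not (adjusted p = 0.801). In the pharyngeal list, 2 of 10 members were higher in Gata6 and 0 higher in Gata5 morphants, with a median of -0.058. The share called, 20%, was near that of all genes. Both called members, nkx2.5 and hand2, belong to the cardiac list too.

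Of 13 tested members of the kidney and intermediate mesoderm list, 7 were higher in Gata6 and 1 was higher in Gata5 morphants (61.5% called, beside 21.7% of all genes) and 5 were not called, with a median log2 difference of -0.364. cdh17 (ENSDARG00000005112), a cadherin gene that marks the pronephros in zebrafish, was at 2.08 and 2.13 RPKM in Gata5, 8.15 and 7.90 RPKM in Gata6, 2.81 and 2.38 RPKM in WT and 10.2 and 11.4 RPKM in Gata5/6 morphants. The libraries with a Gata6 morpholino were above all others, and the log2 difference was -1.54 ± 0.086 (adjusted p = 0.0002). osr1, a zinc-finger gene of intermediate mesoderm, stood the other way against WT, with 4.97 and 5.08 RPKM in Gata5, 9.01 and 8.30 RPKM in Gata6 and 8.29 and 8.76 RPKM in WT. Here the Gata5 libraries were the low ones. lhx1a, a LIM homeobox gene of the same tissue, had 2.59 ± 0.050 RPKM in Gata5 and 4.70 ± 0.26 RPKM in Gata6 morphants, with 4.1 RPKM in WT. mecom, a zinc-finger gene of the distal pronephros, was the member higher in Gata5 morphants, at 4.99 ± 0.30 against 2.76 ± 0.40 RPKM (log2 difference 0.68 ± 0.10, adjusted p = 0.0053). The number higher in Gata6 was 3 or 4 on leaving out any 1 of the 4 compared libraries and 3 with 16 libraries. lhx1a lost its call in the latter (adjusted p = 0.147).

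Of 14 blood and vascular genes tested, 4 were higher in Gata5 and 1 higher in Gata6 morphants (35.7% called, beside 21.7% of all genes). The other 9 were not called. The median log2 difference was 0.175, and the list's median in WT was 0.999 higher at 6-somites than at bud. tal1 (ENSDARG00000019930), a helix-loop-helix factor of blood precursors, was at 19.7 and 22 RPKM in Gata5, 12.6 and 13.7 RPKM in Gata6, 17.9 and 17.2 RPKM in WT and 17.4 and 17.9 RPKM in Gata5/6 morphants. The Gata6 libraries were the lowest of the 8 and the Gata5 libraries the highest, with a log2 difference of 0.63 ± 0.077 (adjusted p = 0.0029). Its partner lmo2 had 31.6 ± 0.79 RPKM in Gata5 and 20.7 ± 0.92 RPKM in Gata6 morphants, with 30.5 RPKM in WT. etsrp, an ETS factor of endothelial precursors, had 28.9 ± 1.4 against 21.5 ± 0.32 RPKM and lost its call without Gata5 library 1 (adjusted p = 0.052). hbae3, an embryonic alpha globin gene, was at 1.56 and 1.35 RPKM in Gata5, 5 and 4.12 RPKM in Gata6, 3.96 and 3.43 RPKM in WT and 1.69 and 1.35 RPKM in Gata5/6 morphants. The libraries with a Gata5 morpholino were below the rest, and the log2 difference was -1.18 ± 0.12 (adjusted p = 0.0015). With 16 libraries hbae3, lmo2 and etsrp were not called (adjusted p = 0.268, 0.079 and 0.497). Without Gata5 library 1, 2 of the list were higher in Gata5.

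**Figure D3:**
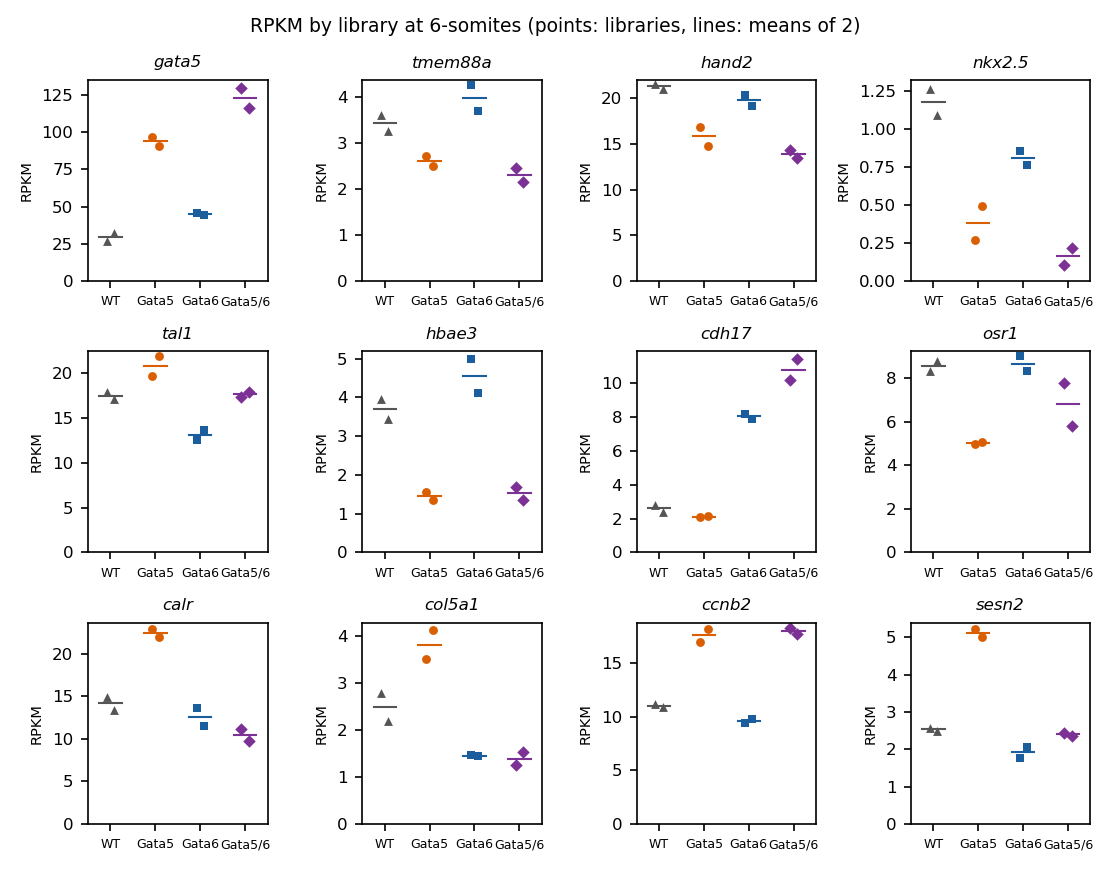
RPKM (y axis, from 0) at 6-somites in each library of WT, Gata5, Gata6 and Gata5/6 morphant embryos for 12 genes of the gene lists, with a line at each mean of 2 libraries. gata5 is highest in the Gata5/6 libraries, at 130.1 and 117 RPKM, and cdh17 is high in the libraries with a Gata6 morpholino, while hbae3 is low in those with a Gata5 morpholino.

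Of 11 endoderm genes tested, 4 were higher in Gata6 and 2 higher in Gata5 morphants (54.5% called, beside 21.7% of all genes). The other 5 were not called, and the median log2 difference was -0.239. foxa2 and foxa3, forkhead factors of endoderm and notochord, had 12.9 ± 0.25 against 15.6 ± 0.18 RPKM and 12.6 ± 0.80 against 16.3 ± 0.27 RPKM in Gata5 and Gata6 morphants. Between 0 and 2 of the list were higher in Gata6 when 1 of the 4 compared libraries was left out, and 1 with 16 libraries. The highest adjusted p was 0.128 for foxa2 (without Gata5 library 1) and 0.0989 for foxa3 (without Gata5 library 2). The 2 higher in Gata5 were gata5 and prdm1, the latter at 28.9 ± 0.31 against 24.6 ± 0.049 RPKM and outside the naming rule.

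Of 30 genes of liver-type secretion and of the yolk syncytial layer tested, 5 were higher in Gata5 and 6 higher in Gata6 morphants. The share called was 36.7%, beside 21.7% of all genes, with a median log2 difference of -0.053. proz, which encodes a vitamin K dependent plasma protein, had 2.20 ± 0.31 RPKM in Gata5 and 5.92 ± 0.026 RPKM in Gata6 morphants, with 1.03 RPKM in WT and 13.5 RPKM in Gata5/6 morphants (log2 difference -1.12 ± 0.098, adjusted p = 0.0012). Both kinds of morphant were thus above WT in mean, and the Gata5/6 morphants above both. creb3l3l, related to membrane-bound factors of lipid metabolism, had 12.6 ± 1.1 against 6.85 ± 0.16 RPKM, with 5.32 RPKM in WT and 10.4 RPKM in Gata5/6 morphants (0.79 ± 0.078, adjusted p = 0.0015). cd36 and cdh17 of this list are described above. With 16 libraries proz was not called (adjusted p = 0.0815). Leaving out 1 of the 4 compared libraries left 3 of the list higher in Gata5 and 2 to 5 higher in Gata6.

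Of 26 extracellular matrix genes tested, 14 were higher in Gata5 and 1 higher in Gata6 morphants (57.7% called, beside 21.7% of all genes) and 11 were not called, with a median log2 difference of 0.397. The same list was 1.18 higher in WT at 6-somites than at bud in the median, and all 15 called members were higher in WT at the later stage. col5a1, a fibrillar collagen gene, was at 3.51 and 4.14 RPKM in Gata5, 1.46 and 1.44 RPKM in Gata6, 2.78 and 2.20 RPKM in WT and 1.26 and 1.53 RPKM in Gata5/6 morphants. The Gata5 libraries were above WT, and the Gata6 libraries lay below WT beside the Gata5/6 libraries. Its log2 difference was 0.97 ± 0.11 (adjusted p = 0.0025). mmp2, a matrix metalloprotease gene, had 18.2 ± 1.2 RPKM in Gata5 and 10.9 ± 0.35 RPKM in Gata6 morphants, with 9.75 RPKM in WT. col11a1 (9.25 ± 0.19 against 5.16 ± 0.33 RPKM) and col12a1 (6.97 ± 0.16 against 4.87 ± 0.27 RPKM) were higher in Gata5 morphants too, although col12a1 varied widely between pools at bud, with 0.168 and 5.34 RPKM in the Gata5 morphant libraries. The member higher in Gata6 morphants was an hapln1 gene (ENSDARG00000068516), a linker of hyaluronan, at 18.7 ± 1.0 against 29.0 ± 2.6 RPKM, which is outside the naming rule. Between 5 and 9 matrix genes were higher in Gata5 on leaving out 1 of the 4 compared libraries, and 6 with 16 libraries. Of the named genes mmp2 and col12a1 were not called in the latter (adjusted p = 0.0502 and 0.728), and col12a1 lost its call without Gata5 library 2 (adjusted p = 0.0534).

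Of 16 notochord and hedgehog genes tested, 10 were higher in Gata5 and 3 higher in Gata6 morphants (81.2% called, beside 21.7% of all genes). The median log2 difference was 0.386, and 10 of the 13 called were higher in WT at 6-somites than at bud. ihhb, a hedgehog ligand gene, was at 3.13 ± 0.028 RPKM in Gata5 and 1.44 ± 0.16 RPKM in Gata6 morphants, with 2.68 RPKM in WT (0.76 ± 0.11, adjusted p = 0.0052). calr, a calcium-binding chaperone gene, had 22.5 ± 0.69 against 12.6 ± 1.5 RPKM, and col8a1a, a collagen gene of the notochord in zebrafish, had 62.0 ± 3.3 against 39.1 ± 2.0 RPKM with 61.9 RPKM in WT. A tbxt gene (ENSDARG00000039806), of the Brachyury family that specifies notochord, had 3.20 ± 0.010 RPKM in Gata5 and 5.47 ± 0.22 RPKM in Gata6 morphants, with 4.52 RPKM in WT (-0.62 ± 0.078, adjusted p = 0.003), and the other 2 higher in Gata6 morphants were foxa2 and foxa3. Between 3 and 5 of the list were higher in Gata5 when 1 of the 4 compared libraries was left out, and 4 with 16 libraries. Of the named genes calr and tbxt lost their call in the latter (adjusted p = 0.0744 and 0.0788), and col8a1a lost it without Gata5 library 2 (adjusted p = 0.0591).

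Of 29 cell cycle genes tested, 11 were higher in Gata5 and 2 higher in Gata6 morphants (44.8% called, beside 21.7% of all genes) and 16 were not called, with a median log2 difference of 0.193. The median WT difference of this list, 6-somites minus bud, was -0.103. ccnb2, a mitotic cyclin gene, was at 17 and 18.2 RPKM in Gata5, 9.43 and 9.84 RPKM in Gata6, 11.2 and 10.9 RPKM in WT and 18.3 and 17.7 RPKM in Gata5/6 morphants. The libraries with a Gata5 morpholino were the high ones, with a log2 difference of 0.81 ± 0.065 (adjusted p = 0.00089). cdk1, the kinase that partners mitotic cyclins, had 89.7 ± 2.6 against 55.5 ± 1.2 RPKM, with 70.4 RPKM in WT. rrm1, the large subunit of ribonucleotide reductase, had 70.7 ± 3.0 against 45.0 ± 3.8 RPKM, with 67.5 RPKM in WT. The 2 higher in Gata6 morphants were the rrm2 gene above and mcm6, a helicase subunit gene at 1.54 ± 0.030 against 2.26 ± 0.10 RPKM that is outside the naming rule. On leaving out 1 of the 4 compared libraries, 7 to 9 of the list were higher in Gata5, with 7 without Gata5 library 1, and with 16 libraries 6.

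Of 26 Notch pathway genes tested, 8 were higher in Gata5 and 0 higher in Gata6 morphants (30.8% called, beside 21.7% of all genes). The median log2 difference was 0.072. All 8 were also higher in WT at 6-somites than at bud. The receptor gene notch1 had 5.61 ± 0.31 RPKM in Gata5 and 3.63 ± 0.33 RPKM in Gata6 morphants, with 5.04 RPKM in WT. The ligand genes dlb (17.7 ± 1.0 against 12.4 ± 0.11 RPKM), dld (33.1 ± 1.8 against 24.9 ± 0.26 RPKM) and jag1b (3.55 ± 0.079 against 2.41 ± 0.12 RPKM) differed likewise. Of the somite list, 6 of 23 genes were higher in Gata5 and 0 higher in Gata6 morphants (26.1% called, near the 21.7% of all genes). The list median of 0.046 became -0.001 after scaling. The 6 included the muscle regulators myod1 (27.1 ± 3.0 against 19.5 ± 0.41 RPKM, with 28.9 RPKM in WT) and myog (5.48 ± 0.45 against 3.68 ± 0.051 RPKM, with 4.48 RPKM in WT). They also included the protocadherin gene pcdh8 (31.2 ± 0.67 against 21.4 ± 0.050 RPKM). The muscle regulator myf5 lay the other way and was not called (13.0 ± 0.83 against 15.7 ± 1.0 RPKM, limma adjusted p = 0.098). After scaling the somite counts were 5 and 1. With 16 libraries 1 of the Notch genes, dld, and 2 of the somite genes were called, and leaving out 1 of the 4 compared libraries left 2 to 4 and 2 or 3 higher in Gata5. Named genes that lost their call were notch1, jag1b, pcdh8 and myod1 (adjusted p up to 0.0824, 0.0756, 0.0723 and 0.106, each without Gata5 library 2).

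Of 19 neural crest and placode genes tested, 5 were higher in Gata6 and 0 higher in Gata5 morphants (26.3% called, beside 21.7% of all genes). The median log2 difference was -0.155. tfap2a, a factor that specifies neural crest, had 17.8 ± 0.10 RPKM in Gata5 and 25.3 ± 1.9 RPKM in Gata6 morphants, with 21.8 RPKM in WT (-0.49 ± 0.073, adjusted p = 0.0054). foxd3, an early crest factor, had 22.2 ± 0.59 against 27.4 ± 1.1 RPKM, and both zic2 genes (ENSDARG00000015554 and ENSDARG00000037178), zinc-finger genes of the neural plate border, were lower in Gata5 morphants by 0.41 and 0.37 on the log2 scale. Of 39 neural plate genes, 5 were higher in Gata5 and 3 higher in Gata6 morphants, a share of 20.5% called beside 21.7% of all genes, and 5 and 5 after scaling. The hindbrain and boundary genes gbx2 (11.5 ± 0.40 against 15.5 ± 0.34 RPKM) and en2 (ENSDARG00000026599, 6.78 ± 0.43 against 9.71 ± 0.10 RPKM) were higher in Gata6 morphants. The other en2 identifier (ENSDARG00000038868), at 13.9 ± 1.2 against 14.1 ± 0.34 RPKM, did not pass the test (limma adjusted p = 0.870). nkx2.1, a homeobox gene of the ventral forebrain, was higher in Gata5 morphants (5.24 ± 0.17 against 3.22 ± 0.14 RPKM). With 16 libraries 0 crest genes and 1 neural plate gene were called. When 1 of the 4 compared libraries was left out, 2 or 3 crest genes were higher in Gata6 and 1 or 2 neural plate genes higher in Gata5. gbx2 lost its call without Gata5 library 1 (adjusted p = 0.065), and foxd3 and the zic2 gene ENSDARG00000037178 lost theirs without Gata5 library 2 (adjusted p = 0.117 and 0.0651).

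Of 22 enveloping layer and epidermis genes, 4 were higher in Gata6 and 2 higher in Gata5 morphants (27.3% called, beside 21.7% of all genes). The median log2 difference was 0.058. tp63, the master factor of basal epidermis, had 5.96 ± 0.26 RPKM in Gata5 and 8.58 ± 0.077 RPKM in Gata6 morphants, with 8.14 RPKM in WT. An anxa1 annexin gene (35.3 ± 2.9 against 54.4 ± 4.0 RPKM) and ca2, a carbonic anhydrase gene (3.20 ± 0.42 against 5.81 ± 1.2 RPKM), were higher in Gata6 morphants, and the claudin gene cldnf was higher in Gata5 morphants (10.4 ± 0.42 against 8.11 ± 0.020 RPKM). The hatching gland list had 1 of 6 members called (16.7%, below the 21.7% of all genes). It was the cathepsin gene ctslb, higher in Gata5 (8.01 ± 0.44 against 5.01 ± 0.65 RPKM), and the list median was 0.15. Among 5 germ cell genes (60% called, beside 21.7% of all genes), ddx4, an RNA helicase gene, was higher in Gata5 (2.18 ± 0.22 against 1.28 ± 0.25 RPKM). dnd1, an RNA-binding protein gene, was higher in Gata6 morphants (1.13 ± 0.041 against 2.1 ± 0.14 RPKM), as was ca15b (1.77 ± 0.085 against 2.68 ± 0.23 RPKM), with a list median of -0.319. With 16 libraries 1 gene of the epidermis list, ca2, was called, and 0 genes of the hatching gland and germ cell lists. In the epidermis list 1 to 3 genes stayed higher in Gata6 and 0 higher in Gata5 on leaving out 1 of the 4 compared libraries, and each named gene of these lists lost its call under some such omission. The highest adjusted p was 0.0541 for tp63, 0.0859 for anxa1 and 0.101 for cldnf (without Gata5 library 2), 0.0751 for ca2 and 0.0991 for ddx4 (without Gata5 library 1), 0.163 for ctslb (without Gata6 library 2), and 0.0594 for dnd1 and 0.165 for ca15b (without Gata6 library 1).

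**Figure D4:**
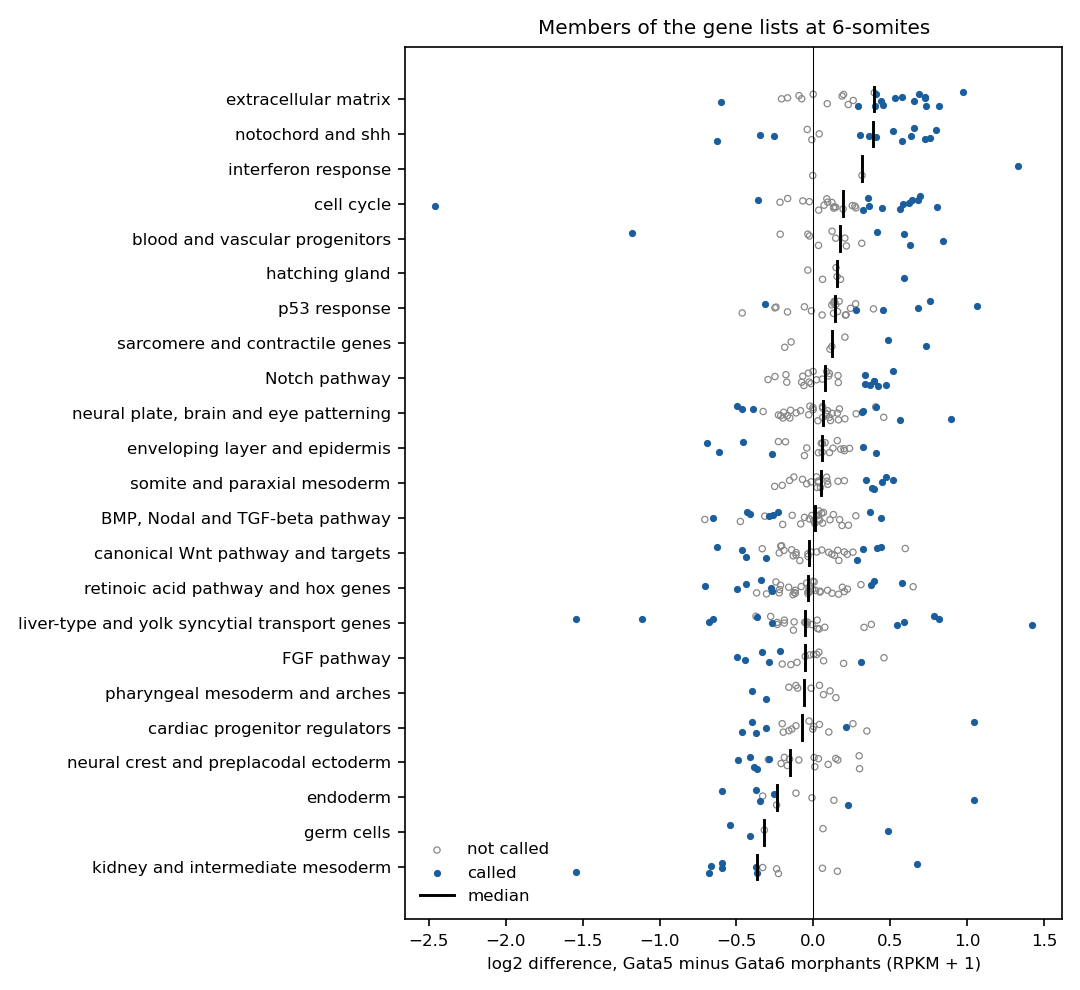
Log2 differences of RPKM + 1 between Gata5 and Gata6 morphants at 6-somites (x axis) for the tested members of 23 gene lists (y axis), with filled points for genes called by limma and a bar at each median. The medians run from -0.364 for kidney genes to 0.397 for extracellular matrix genes.

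Of 17 FGF pathway genes tested, 5 were higher in Gata6 and 1 higher in Gata5 morphants (6 and 0 after scaling) and 11 were not called. The share called was 35.3%, beside 21.7% of all genes, with a median log2 difference of -0.053. The ERK phosphatase genes dusp4 (8.68 ± 0.44 against 12.7 ± 0.11 RPKM) and dusp6 (48.4 ± 0.47 against 59.3 ± 4.3 RPKM) and the ETS target gene etv5a (10.5 ± 0.18 against 14.7 ± 0.41 RPKM) were higher in Gata6 morphants, where WT stood at 11.7, 63.7 and 12.6 RPKM. fgf24, a ligand gene, was higher in Gata5 morphants by 0.31 ± 0.085, but not after scaling (adjusted p = 0.058). No FGF gene was called with 16 libraries, and 2 or 3 were higher in Gata6 on leaving out 1 of the 4 compared libraries. dusp6 lost its call without Gata6 library 2 (adjusted p = 0.152) and fgf24 without Gata6 library 1 (adjusted p = 0.168). dusp4 and etv5a were close to the threshold with 16 libraries (adjusted p = 0.051 and 0.0502).

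Of 32 canonical Wnt genes tested, 4 were higher in Gata5 and 4 higher in Gata6 morphants, 2 and 7 after scaling. The share called was 25%, near the 21.7% of all genes, with a median log2 difference of -0.026. ctnnb1, which encodes beta-catenin, was at 315.5 ± 0.29 RPKM in Gata5 and 427.4 ± 4.1 RPKM in Gata6 morphants, with 443.5 RPKM in WT (-0.44 ± 0.064, adjusted p = 0.005). The tbxt gene, a Wnt target, is described with the notochord. A receptor gene of the fzd8 pair (ENSDARG00000038569) had 15.9 ± 1.8 RPKM in Gata5 and 11.4 ± 0.69 RPKM in Gata6 morphants (adjusted p = 0.024), and the other fzd8 identifier (ENSDARG00000045444) did not pass the test (adjusted p = 0.915). Of 33 BMP, Nodal and TGF-beta genes, 6 were higher in Gata6 and 2 higher in Gata5 morphants. The share called was 24.2%, near the 21.7% of all genes, with a median of 0.009 on the deposited scale and -0.041 after scaling. gdf3, a Nodal co-ligand gene, had 7.25 ± 0.30 against 12 ± 1.0 RPKM, with 14.9 RPKM in WT (-0.65 ± 0.089, adjusted p = 0.0039). nog2, a BMP antagonist gene, was higher in Gata5 morphants (3.44 ± 0.18 against 2.28 ± 0.39 RPKM). id2, a BMP-responsive inhibitor of helix-loop-helix factors, was higher in Gata6 morphants (7.85 ± 0.014 against 9.60 ± 0.43 RPKM). With 16 libraries 0 genes of either list were called. When 1 of the 4 compared libraries was left out, 2 or 3 Wnt genes and 1 or 2 BMP, Nodal and TGF-beta genes were higher in Gata6, with 0 or 1 of each list higher in Gata5. The fzd8 gene lost its call without Gata5 library 1 (adjusted p = 0.13), and nog2 and id2 without Gata6 library 1 (0.145 and 0.153).

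Of 41 retinoic acid and hox genes, 6 were higher in Gata6 and 3 higher in Gata5 morphants, a share of 22% called that is near the 21.7% of all genes, with a median of -0.035. A hoxd3 gene had 3.10 ± 0.15 RPKM in Gata5 and 5.69 ± 0.27 RPKM in Gata6 morphants, with 6.06 RPKM in WT and 3.47 RPKM in Gata5/6 morphants (-0.71 ± 0.11, adjusted p = 0.0056). hoxa13b was lower in Gata5 morphants (1.03 ± 0.077 against 1.74 ± 0.11 RPKM), and a hoxb5 gene (ENSDARG00000054030) was higher (8.93 ± 0.22 against 6.56 ± 0.070 RPKM). A dhrs3 gene (ENSDARG00000044982), whose enzyme reduces retinal, had 6.46 ± 0.24 against 9.55 ± 0.093 RPKM. The other hoxb5 (ENSDARG00000013057) and dhrs3 (ENSDARG00000044803) identifiers did not pass the test (adjusted p = 0.253 and 0.0943). hoxd3 alone of the list was called with 16 libraries. On leaving out 1 of the 4 compared libraries, 1 to 3 of the list were higher in Gata6. hoxb5 and dhrs3 lost their calls without Gata5 library 2 (adjusted p = 0.0505 and 0.0787) and hoxa13b without Gata6 library 2 (0.0725).

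Of 26 p53 response genes, 5 were higher in Gata5 and 1 higher in Gata6 morphants, 5 and 3 after scaling, a share called of 23.1% that is near the 21.7% of all genes, with a median log2 difference of 0.142. sesn2, a stress-induced inhibitor of growth signalling, was at 5.21 and 5.01 RPKM in Gata5, 1.78 and 2.06 RPKM in Gata6, 2.58 and 2.49 RPKM in WT and 2.45 and 2.36 RPKM in Gata5/6 morphants. Only the Gata5 libraries stood above WT, with a log2 difference of 1.07 ± 0.079 (adjusted p = 0.00059). A gadd45b gene (ENSDARG00000013576), of a DNA damage response family, had 7.29 ± 0.66 against 3.89 ± 0.32 RPKM. The other gadd45b identifier (ENSDARG00000027744), at 4.44 ± 0.10 against 3.69 ± 0.028 RPKM, did not pass the test (adjusted p = 0.0933). tp53inp1, a p53-induced nuclear protein gene, had 11.8 ± 0.55 against 6.98 ± 0.33 RPKM with 4.96 RPKM in WT. tnfrsf1a, a receptor gene for tumour necrosis factor, was higher in Gata5 morphants too (2.03 ± 0.0036 against 1.21 ± 0.10 RPKM), but not without Gata6 library 2 (adjusted p = 0.103). The member higher in Gata6 was bax, which promotes cell death (23.9 ± 1.8 against 30.0 ± 1.7 RPKM). mdm2 and cdkn1a, direct p53 targets, had log2 differences of 0.12 and 0.16 and were not called. bax, mdm2 and cdkn1a are outside the naming rule. Of 3 interferon response genes tested, with a median of 0.316, 1 was called (33.3%, beside 21.7% of all genes), the ubiquitin-like protein gene isg15. It was at 3.02 and 3.07 RPKM in Gata5, 0.643 and 0.580 RPKM in Gata6, 0.369 and 0.342 RPKM in WT and 1.25 and 2.15 RPKM in Gata5/6 morphants (1.33 ± 0.15, adjusted p = 0.0022). Its level was above WT in every morphant library and highest in the Gata5 libraries. With 16 libraries tp53inp1 and isg15 were not called (adjusted p = 0.2 and 0.0718), and 3 p53 response genes were higher in Gata5 on leaving out any 1 of the 4 compared libraries.

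Most of the largest differences had the same direction in the bud pools, which the test at 6-somites did not use. Of the 1922 genes called higher in Gata5 at 6-somites and listed at bud, 863 (44.9%) were higher in both Gata5 than in both Gata6 libraries at bud, beside 17.1% of all genes. Of the 1154 called higher in Gata6 morphants, 655 (56.8%) were so at bud, beside 24.1% of all genes. In all, 1518 of 3076 (49.3%) kept their direction without overlap, 168 (5.46%) had the opposite direction without overlap, and 1390 overlapped. Of the 116 genes with a log2 difference over 1, 85 (73.3%) kept their direction and 3 had the opposite direction. Of the 24 genes with the highest and lowest values described above, 22 kept it and 24 had the same sign. zgc:56231 was at 12.7 and 10.3 RPKM in Gata5 and at 0.445 and 0.264 RPKM in Gata6 morphants at bud, and cdh17 at 0.606 and 0.612 against 6.67 and 4.97 RPKM. The labels do not say whether pools of the 2 stages came from the same clutches.

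**Figure D5:**
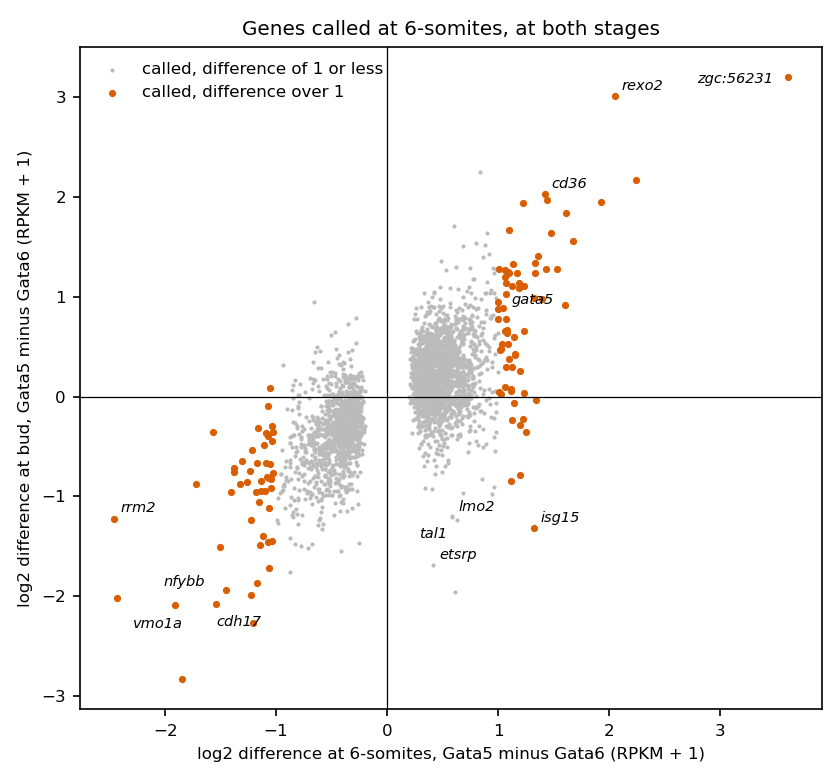
Log2 difference of RPKM + 1 between Gata5 and Gata6 morphants at bud (y axis) against the same difference at 6-somites (x axis) for the 3076 genes called at 6-somites and listed at bud. Genes with a difference over 1 at 6-somites are larger points, and 85 of these 116 keep their direction without overlap at bud, while isg15, tal1, lmo2 and etsrp lie on the other side of zero.

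The difference between the morphants itself differed between the stages in 4 of 14751 genes tested (0.0271%) in a fit of 16 libraries, and 1355 had an unadjusted p under 0.05. tal1 was at 0.352 and 0.638 RPKM in Gata5 and at 2.66 and 2.34 RPKM in Gata6 morphants at bud, the reverse of its order at 6-somites. The stage difference of the log2 values was 1.86 ± 0.18 (adjusted p = 0.0068). lmo2 was at 1.31 and 2.00 against 4.27 and 5.98 RPKM at bud, also the reverse of 6-somites, with a stage difference of 1.79 ± 0.24 (adjusted p = 0.041). The gene model ENSDARG00000091986 had nearly the same values as lmo2 in every library, and its stage difference was 1.79 ± 0.24, so the pair may share reads and cannot be counted as 2 genes. en2 (ENSDARG00000038868), a homeobox gene of the boundary between midbrain and hindbrain, was at 0.196 and 0.423 RPKM in Gata5 and at 2.90 and 2.75 RPKM in Gata6 morphants at bud, and at 13.1 and 14.7 against 14.4 and 13.9 RPKM at 6-somites. The bud libraries did not overlap for this gene while the 6-somites libraries did, and the stage difference was 1.53 ± 0.16 (adjusted p = 0.008).

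Of the 96 named called genes, 11 had the opposite direction without overlap at bud, beside 5.46% of all called genes. Over all genes tested, the bud libraries did not overlap in 17.1% with Gata5 higher and in 24.1% with Gata6 higher. The 11 included tal1 and lmo2, and the others were etsrp, isg15, gdf3, tp53inp1, foxa2, foxa3, myog, col8a1a and a zic2 gene (ENSDARG00000015554). None of these others was called for a stage difference. For gdf3 the log2 difference was -0.65 at 6-somites and 0.95 at bud, for tp53inp1 0.68 and -0.96, and for foxa2 -0.25 and 0.24. etsrp was at 1.58 and 1.72 RPKM in Gata5 and at 10.7 and 5.22 RPKM in Gata6 morphants at bud (stage difference adjusted p = 0.141). isg15 was at 1.06 and 1.48 against 8.81 and 2.23 RPKM (adjusted p = 0.143). The replicate Gata6 pools at bud differed widely for etsrp and isg15, and in them tp53inp1 stood at 12.3 and 5.45 RPKM and hand2 at 19.5 and 8.95 RPKM. Without Gata6 bud library 1 the number of genes called for a stage difference was 705, and without Gata6 bud library 2 it was 21. It was 2 without Gata5 library 1 of 6-somites and 0 without any 1 of the other 3 compared libraries of that stage.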

How the data were processed

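Single reads of 36 bases came from an Illumina Genome Analyzer IIx, per the labels. The authors deposited RPKM values in 1 table per library, with genome build Zv9 per the submitters' processing notes. Aligner, annotation and counting method: not given in the sources used here. No gene was listed at 0 in any library. Symbols came from a table of gene identifiers and covered 18921 of 26496 genes. A symbol without a copy letter may stand for either copy of a duplicated gene, and overlapping models may share reads.

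limma 3.58.1 (R 4.3.3, trend option, two-sided, Benjamini-Hochberg, threshold 0.05) was fitted to log2(RPKM + 1) of the 8 libraries at 6-somites (4 groups, residual degrees of freedom 4), which understates the ratio of weakly expressed genes. The stage difference used 16 libraries (residual degrees of freedom 8). Named genes were the 12 highest and 12 lowest called genes with a symbol, no overlap and a mean of at least 2 RPKM, up to 4 called members of each list by p, the called stage differences, gata5, tmem88a and tmem88b. Of 580 list members, 357 matched by symbol, 138 after dropping the copy letter, and 85 did not match. Some genes that the rule selects are not reported here. Members and lists were chosen with earlier results of these data known. Whole reads were recovered from the RPKM spacing (tolerance 0.02 reads) for depth, replicate comparison and limma-voom. Alternatives were a pseudocount of 0.1, no filter, a filter of 5 RPKM, scaling, voom, a replicate block, fits of 16 and of 4 libraries, and leaving out each library. Fits and recovery were tested on simulated data.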

Additional observations from a re-analysis of the deposited data

Results flagged for a closer look

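In 4 gene models the difference between Gata5 and Gata6 morphants changed between bud and 6-somites in a test of that change itself (limma, 16 libraries). The stage difference on the log2 scale was 1.86 for tal1, 1.53 for en2 (ENSDARG00000038868), 1.79 for lmo2 and 1.79 for ENSDARG00000091986, whose values follow those of lmo2. All 4 were lower in Gata5 than in Gata6 morphants at bud. At 6-somites tal1, lmo2 and ENSDARG00000091986 were higher in Gata5 morphants, and en2 was at 13.9 ± 1.2 and 14.1 ± 0.34 RPKM (SD, n = 2). Groups of 2 libraries are too small for a search for single libraries far from the others.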

How the results depend on the processing

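No named gene that was called changed sign under any alternative run. List medians near 0 did, as for somite genes (-0.001) and BMP, Nodal and TGF-beta genes (-0.041) after scaling, germ cell (0.062) and pharyngeal genes (0.012) with the filter of 5 RPKM, and liver-type genes without Gata5 library 2 (0.027). Without 1 compared library, more genes were called higher in the other morphant than in the reported one for the cardiac (1 and 0 in Gata5 and Gata6), endoderm (1 and 0), liver-type (3 and 2), germ cell (1 and 0), neural plate (1 and 3) and retinoic acid lists (2 and 1). Against 3077 called genes, the count was 567 with 16 libraries and 1037 to 2987 on leaving out 1 of the 8 libraries, and within 1.5 times under the other settings, from 2055 of 8334 genes with a filter of 5 RPKM to 4496 with the replicate block. Of 98 named genes, 96 were called, 58 whichever library was left out, 42 with 16 libraries, 95 after scaling and 94 with voom. Replicate numbers are in the labels without a statement of shared clutches, and deviations of same-numbered Gata5 and Gata6 libraries correlated at 0.377. Over all pairs of the 4 groups at 6-somites this correlation ran from 0.236 (Gata5 and WT) to 0.544 (Gata6 and WT). Its cause was not tested. The replicate block changed no call of the 96 and gave 6 stage differences.

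The count of stage differences, 4, was 0 with a pseudocount of 0.1 RPKM, 2 after scaling and 0 to 705 on leaving out 1 library. By the sign of the mean alone, 2438 genes kept their direction at bud, against 1518 without overlap. The causes were not tested. At 20.07 to 26.95 M reads, genes under 1 RPKM rest on few reads.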
